A study of Mus musculus with 2 samples.

Results

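The 32 genes described here encode the machinery by which cells sense low oxygen and the glycolytic enzymes and transporters that this machinery controls. They were taken by symbol from a fixed list, itself chosen with earlier results of these data known. All 32 stood in both count matrices, out of 28200 genes listed in either. By role they comprised 2 transporters of glucose or lactate (Slc2a1, Slc16a3), 13 glycolytic enzymes (Hk1, Hk2, Gpi1, Pfkl, Pfkp, Aldoa, Tpi1, Gapdh, Pgk1, Pgam1, Eno1, Pkm, Ldha), 3 regulators of glycolytic or pyruvate flux (Pfkfb3, Pfkfb4, Pdk1), 4 subunits of the hypoxia-inducible factors (Hif1a, Epas1, Hif3a, Arnt), 2 oxygen-dependent prolyl hydroxylases (Egln1, Egln3) and 8 further hypoxia-induced genes (Bnip3, Bnip3l, Ankrd37, Ndrg1, Ddit4, Kdm3a, Mxi1, Ero1a).

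Hypoxia-inducible factors are pairs of an oxygen-labile alpha subunit, such as HIF-1 alpha (Hif1a) or HIF-2 alpha (Epas1), and the stable partner ARNT. While oxygen is present, the prolyl hydroxylases mark the alpha subunit for destruction; when oxygen is scarce, the pair binds DNA and raises transcription of glucose transporters, glycolytic enzymes and genes of mitophagy and survival. Blood crossing a liver lobule loses oxygen between the portal tract and the central vein, so the pericentral end is the less oxygenated one, and obstruction of venous outflow acts on that end first.

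Both samples were liver cell suspensions from male mice after pIVCL, a partial ligation of the inferior vena cava that obstructs outflow and congests the liver. One library is labelled with the genotype Ctgf fl/fl (floxed alleles without Cre), and is called the library labelled control. The other is labelled Cdh5-CreERT2; Ctgf fl/fl, with a tamoxifen-inducible Cre under the endothelial Cdh5 promoter, and is called the library labelled knockout. Ctgf is the older symbol of Ccn2, a secreted matricellular protein. The floxed alleles and the ligation are thus shared by both, and the labels used here give neither age, tamoxifen schedule nor time after ligation. Both carry the same batch label. The sample titles contradict the genotype labels, whereas the library names go with them. Ccn2 in endothelial cells stood at 960 CPM (counts scaled to 1e+06 summed counts of that cell type) in the library labelled control and at 4.99 CPM in the library labelled knockout, which goes with the genotype labels; in stellate cells, which the Cdh5 promoter does not label, the levels were 1198 and 1091 CPM. There was 1 library of 1 mouse per label, so no test between labels could be made; pairs of values are given as control label, then knockout label, unless said otherwise. With this design the genotype, the animal, the surgery and the preparation of the suspension cannot be told apart.

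The matrices held 10000 barcodes each, of which 7917 and 8799 were kept, with medians of 7972 and 9506 counts per kept cell. Cells were assigned to types by marker genes that include no member: 9 types with at least 50 cells in both libraries were described, covering 5612 and 6698 cells. Cells with markers of 2 lineages, 24.5% and 18.8% of kept cells, were left out. In every one of the 9 types the markers of the type itself led: the median score of a cell for its own markers was between 0.43 and 0.86, and that for the next best class between 0.089 and 0.243. In an unsupervised clustering drawn without the members, endothelial and Kupffer cells of the 2 libraries fell mostly into different clusters. Cluster 1 held 74.55% of endothelial cells of the library labelled control, whereas in the library labelled knockout clusters 0 and 2 held 49.85% and 40.38% of them. Kupffer cells were split in the same way between clusters 6 and 10 (52.3% and 30.03%) and cluster 3 (78.36%). Monocytes shared clusters 13, 8 and 9, in shares of 47.37%, 41.77% and 8.98% in the library labelled control and 30.29%, 13.5% and 55.84% in the other. The 2 matrices shared 2 cell barcodes.

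HIF binds a short core motif, and its presence near the start sites of the members is shown first. The members were listed as a hypoxia response and not by any sequence. Some are known HIF targets, however, so the share with a motif is not independent of how the list was made. ACGTG or GCGTG, read on both strands (so also as CACGT or CACGC), was searched in the 250 bases before each start site of the RefSeq promoter table (GRCm38.p6), which held 29 of the 32 members. Of these, 27 (93.1%) had at least 1 match, against 11226 of 27025 genes in the table (41.54%). A gene counted if any of its start sites had a match, and the members had 1 to 3 start sites. The background was not matched to the members for number of start sites, base composition or expression. For ACGTG alone the figures were 17 members (58.62%) against 18.49% of all genes. CACGTG, an E-box bound by other factors, contains this motif, and was present in 4 members (13.79%) against 6.86% of all genes. Among the glycolytic enzymes 11 of 13 had a match, and Gpi1 and Tpi1 had none. A match is a description of the letters and not a bound site, and no binding was measured here.

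The stretches that follow, each of 100 bases and none overlapping an annotated exon, belong to members on which the results turn: hexokinase 2 and phosphoglycerate kinase 1, among the glycolytic enzymes lowest in endothelial cells of the library labelled knockout, then Ldha and Pgam1, the mitophagy receptor Bnip3, and Pfkfb3, which was higher in endothelial cells. Capitals mark the motif matches, and each is written 5′ to 3′ on the strand of its gene. The stretches do not lie at a fixed distance from the start site. Their first base is 100 bases before it in Hk2 and Ldha, and 175 bases before it in Pgam1. They hold 1 of 2 matches of the searched bases in Hk2, 3 of 5 in Ldha and all matches in the other genes. The density of matches in them is therefore not that of the whole region searched.
Hk2 (chr6:82774455-82774554, minus strand): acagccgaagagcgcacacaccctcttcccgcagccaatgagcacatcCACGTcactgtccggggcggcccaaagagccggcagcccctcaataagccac
Pgk1 (chrX:106186950-106187049, plus strand): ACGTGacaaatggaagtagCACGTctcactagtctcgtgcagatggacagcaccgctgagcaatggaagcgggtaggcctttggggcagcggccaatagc
Ldha (chr7:46845704-46845803, plus strand): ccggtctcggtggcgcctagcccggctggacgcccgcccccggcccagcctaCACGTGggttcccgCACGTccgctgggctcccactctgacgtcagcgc
Pgam1 (chr19:41911696-41911795, plus strand): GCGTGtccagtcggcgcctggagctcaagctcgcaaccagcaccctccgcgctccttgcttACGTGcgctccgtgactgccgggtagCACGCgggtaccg
Bnip3 (chr7:138909524-138909623, minus strand): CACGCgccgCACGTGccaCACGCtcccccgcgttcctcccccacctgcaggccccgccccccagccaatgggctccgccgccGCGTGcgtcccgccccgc
Pfkfb3 (chr2:11502113-11502212, minus strand): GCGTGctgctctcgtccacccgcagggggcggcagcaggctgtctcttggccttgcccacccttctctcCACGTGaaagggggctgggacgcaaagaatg

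Transcripts of glucose uptake and glycolysis were lower in endothelial cells of the library labelled knockout. The HIF subunits and the other hypoxia-induced genes were mixed in direction, Epas1 being higher and Hif1a lower. The 13 glycolytic enzymes summed to 2132 CPM (95% Poisson interval 2110 to 2155, 1933 cells) with the control label and 1388 CPM (1375 to 1401, 3591 cells) with the knockout label, which is a log2 ratio of -0.62 (-0.64 to -0.60). All 13 had log2 ratios below 0, as had 54.7% of the 8845 genes measured. Measured genes were those with 20 counts or more in the libraries together and a mean of 10 CPM or more; a gene was taken as higher or lower past a fold of 1.5, by size alone. Of the 27 members measured, 11 were lower, against a background of 11.2% of all genes, and 2 were higher, against 5.19%. Intervals cover counting error only.

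**Figure D1:**
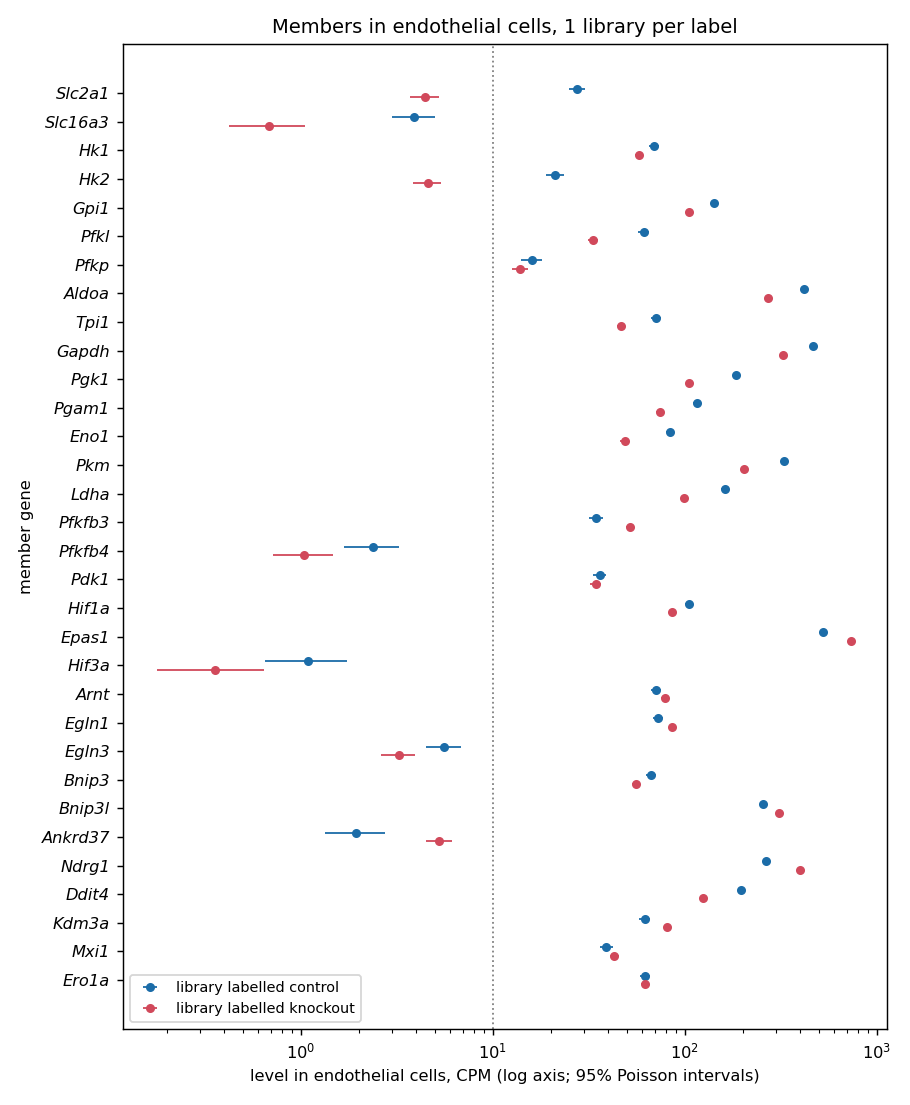
Level of each member in endothelial cells, in CPM on a log axis, for the library labelled control (blue) and the library labelled knockout (red), with 95% Poisson intervals; the dotted line marks 10 CPM. Slc2a1 and Hk2 lie farthest apart among the measured members, at 27.4 against 4.44 CPM and 21.1 against 4.57 CPM, and Epas1, Ndrg1 and Pfkfb3 lie higher in the library labelled knockout.

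Slc2a1 encodes GLUT1, the main glucose transporter of endothelium and a classical HIF target. It stood at 27.4 CPM (451 counts) (control label) and 4.44 CPM (136 counts; knockout label), with a log2 ratio of -2.63 (-2.92 to -2.35). With each cell thinned to 2848 counts, an Slc2a1 count was found in 7.19% of control-labelled and 0.947% of knockout-labelled endothelial cells (17.3% and 3.26% unthinned). Hepatocytes, which take up glucose mainly by another transporter, served as the background: 0 of 258 and 0 of 83 thinned hepatocytes had a count, with Clopper-Pearson upper bounds of 1.42% and 4.35%, the typical cell holding 5739 and 6045 counts (endothelial cells 6864 and 7257). Unthinned, the hepatocyte shares were 2.33% and 21.7%, the 83 cells of the library labelled knockout holding 3438745 counts in all. After thinning, the endothelial share lay under these bounds in the library labelled knockout and above them in the library labelled control. The bounds follow from the number of hepatocytes, and those of the library labelled knockout were not free of Slc2a1. A share under them therefore does not show absence. At 4.44 CPM, endothelium had the lowest Slc2a1 level of the described types in the library labelled knockout. Slc2a1 had the largest difference of the measured members in endothelium. The lactate exporter Slc16a3 was below the measured range, at 3.90 and 0.686 CPM.

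Hk2, the inducible hexokinase that commits glucose to the cell, stood at 21.1 CPM (346 counts) and 4.57 CPM (140 counts) in that order, the log2 ratio being -2.20 (-2.50 to -1.92). Hk1, its constitutive counterpart, was 69.4 and 57.7 CPM and did not pass the fold. The hexokinases therefore separated, the inducible form being far lower and the constitutive form nearly level. Hk2 was highest in Kupffer cells (108.7 and 102.3 CPM), whose markers in endothelial cells were 726 and 264 CPM. The part of such foreign RNA in the endothelial Hk2 level was not tested. Pfkl, the liver-type phosphofructokinase, was 61.0 and 33.3 CPM (log2 -0.87). Pfkp, the platelet-type form, was 15.9 and 13.9 CPM and within the fold.

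From aldolase onward the log2 ratios of the 8 enzymes lay between -0.82 and -0.51. Aldoa, which splits fructose bisphosphate, was 415 and 272 CPM (log2 -0.61), and Tpi1, which interconverts the triose phosphates, 70.6 and 46.5 CPM (log2 -0.60). Pgk1, the first ATP-forming step, was 185 and 105 CPM (log2 -0.82, -0.89 to -0.75). The remaining 4 members lower past the fold were Pgam1 (115.5 and 74.2 CPM), Eno1 (83.8 and 48.7 CPM), Pkm (328 and 204 CPM) and Ldha (161 and 98.7 CPM), with log2 ratios from -0.78 to -0.64. Gapdh and Gpi1 were lower but within the fold, at 463 and 324 CPM and 142.5 and 105.4 CPM. Aldoa, Gapdh, Pgk1, Pgam1, Eno1 and Ldha have near-identical copies or pseudogenes, and how reads shared with these were counted is not given in the sources used here, so their levels are uncertain to that extent.

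The flux regulators and the HIF pathway itself were higher or within the fold. Pfkfb3 makes the allosteric activator of phosphofructokinase and is a known driver of endothelial glycolysis; it was 34.5 and 51.8 CPM (log2 0.59, 0.45 to 0.73). That ratio lies on the fold threshold: over the alternatives it was between 0.53 and 0.69, and it was within the fold with the stricter cell filter, mixed cells kept, types from clusters, thinned cells, mean per-cell CPM or no cells with a cycling count. Pdk1, which holds pyruvate back from the mitochondrion, was 36.0 and 34.3 CPM. Epas1, the alpha subunit that predominates in endothelium, was 522 and 731 CPM (log2 0.49, 0.45 to 0.52), just within the fold, whereas Hif1a was 105.2 and 86.3 CPM (log2 -0.29). Arnt (70.7 and 78.7 CPM) and the hydroxylase Egln1 (72.5 and 85.6 CPM) were within the fold. Hif3a, Egln3, Pfkfb4 and Ankrd37 were below the measured range.

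The other hypoxia-induced genes were mixed in direction. Ndrg1, a stress-response gene strongly induced by hypoxia in many cells, stood at 265 and 398 CPM; its log2 ratio of 0.58 (0.53 to 0.64) lies on the fold threshold, ranged from 0.42 to 0.70 over the alternatives, and was within the fold with types from clusters, thinned cells, mean per-cell CPM or no cells with a cycling count. A count of it was found in 48.8% and 61.0% of thinned endothelial cells (76.0% and 83.7% unthinned), against 3.57% and 3.40% of thinned B cells; B cells were shallower, with medians of 4537 and 4066 counts. Ddit4, an inhibitor of mTORC1 induced by hypoxia and by other stresses, was lower, at 196 and 124 CPM (log2 -0.66, -0.73 to -0.59). Bnip3 (66.9 and 55.5 CPM), its mitophagy partner Bnip3l (255 and 310 CPM), the histone demethylase Kdm3a (61.8 and 81.1 CPM), Mxi1 (39.0 and 42.9 CPM) and the endoplasmic reticulum oxidase Ero1a (61.8 and 62.1 CPM) were within the fold. As summed levels, the 8 genes of this role were 947.6 and 1079 CPM (log2 0.19) and the 4 HIF subunits 698.6 and 896.6 CPM (log2 0.36). The differences in these sums were mostly those of 1 gene each, Ndrg1 in the former and Epas1 (522 and 731 CPM) in the latter. The median log2 ratios of the measured genes were 0.14 and 0.15.

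Other gene lists differed alongside the endothelial result. Cycling genes summed to 380 CPM in the library labelled control and 134 CPM in the library labelled knockout, with 4 of 4 measured lower. Immediate early and dissociation genes were 2143 and 4697 CPM (5 of 8 measured higher and 1 lower), clock output genes 501.6 and 1034 CPM (7 of 9 higher), and hepatocyte markers 363 and 115 CPM (4 of 4 lower). Kupffer markers in these cells were 726 and 264 CPM, monocyte markers 363 and 83.3 CPM, and erythroid markers 119 and 53.7 CPM. In the ratio found in hepatocytes, the hepatocyte markers carried 25.7 and 4.89 CPM of glycolytic transcripts, out of 2132 and 1388. The glycolytic transcripts carried with Kupffer and monocyte markers were not worked out, so the part of all foreign RNA in the sums was not tested. Without cells that had a count of a cycling gene the glycolytic sum was 2018 and 1367 CPM (log2 -0.56), and all 13 enzymes stayed below 0. The part of the immediate early and clock genes in the result was not tested.

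With edgeR's TMM scaling, which shifted all endothelial log2 ratios up by 0.10, 3 members were higher and 6 lower, and the 6 were Slc2a1, Hk2, Pfkl, Pgk1, Eno1 and Ldha. Across the 13 alternatives the log2 ratio of the glycolytic sum stayed between -0.65 and -0.52.

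The distribution over single cells was lower across its range. Thinned to equal depth, endothelial cells had a median of 5 glycolytic counts per cell (quartiles 3 and 7) in the library labelled control and 4 (quartiles 2 and 5) in the library labelled knockout. The 90th percentile was 10 and 7 counts. Cells with no glycolytic count made up 1.60% and 3.06%.

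**Figure D2:**
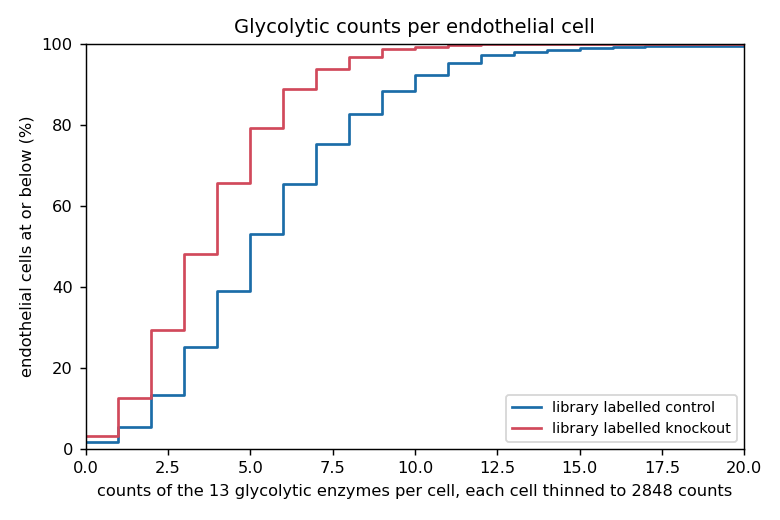
Cumulative share of endothelial cells (y axis, %) by their number of counts of the 13 glycolytic enzymes (x axis) after each cell was thinned to 2848 counts. The curve of the library labelled knockout lies to the left of that of the library labelled control, with medians of 4 and 5 counts.

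Within the endothelium, zones were read from pericentral and periportal marker genes, none of which is a member; a cell was assigned to a zone with at least 2 more markers detected of one zone than of the other. The library labelled control had 109 pericentral, 479 middle and 1061 periportal cells, the library labelled knockout 256, 1013 and 2177. Cells of large vessels (59 and 86) and cells with the sprouting markers Esm1 and Angpt2 (225 and 59) were kept apart. A zone here is a range of marker counts in 1 library and not a cell type.

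The summed level of the glycolytic enzymes was above its periportal level at the pericentral end of both libraries, within the fold. It was 1888 CPM periportally and 2518 CPM pericentrally in the library labelled control (log2 0.42, 0.36 to 0.47), and 1314 and 1625 CPM in the library labelled knockout (log2 0.31, 0.26 to 0.35). All 13 were above 0 in the former and 10 of 12 measured in the latter; of all genes measured, 43.33% and 43.63% were below 0. Past the fold were 3 of the 13 and 1 of the 12. Past the fold, the library labelled control had 3 members higher pericentrally (background 11.0%) and 5 lower (background 8.99%) of 27 measured. For the library labelled knockout these were 1 higher (background 6.53%) and 3 lower (background 4.43%) of 25.

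Eno1 was the member higher pericentrally past the fold in both libraries, at 70.0 CPM periportally and 113.5 CPM pericentrally in the library labelled control, and 45.2 and 72.0 CPM in the library labelled knockout. Gapdh was 401 and 606 CPM in the former, on the threshold at a log2 ratio of 0.60, and 294 and 406 CPM in the latter. Hk2 had 17.3 CPM periportally and 39.0 CPM pericentrally in the library labelled control (46 pericentral counts, log2 1.17, 0.65 to 1.66). In the library labelled knockout it stood at 3.83 and 3.64 CPM and was below the measured range, so the zonal difference could not be compared there.

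Epas1 had the opposite slope. Its level was 646 CPM periportally and 247 CPM pericentrally in the library labelled control (log2 -1.39, -1.56 to -1.21), and 815 and 529 CPM in the library labelled knockout (log2 -0.62, -0.71 to -0.54). Of the pericentral, middle and periportal zones, the pericentral one thus had the lowest HIF-2 alpha transcript in both libraries. Oxygen was not measured here. Pfkfb3 was likewise lower pericentrally in both, at 37.8 against 24.6 CPM and 57.7 against 38.0 CPM. Pdk1 (39.4 and 22.0 CPM) and Bnip3 (68.1 and 43.2 CPM) were lower pericentrally past the fold in the library labelled control, and within the fold in the other.

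Set between labels, 10 of 27 measured members were lower in pericentral cells of the library labelled knockout (background 16.6%) and 4 higher (background 12.0%), the latter being Pfkfb3, Pdk1, Ndrg1 and Epas1. The share of higher members was near that of all genes. Pfkfb3 (29 and 94 counts, log2 0.63, 0.02 to 1.28) and Pdk1 (26 and 91 counts, log2 0.74, 0.10 to 1.43) had wide intervals. In the middle zone 12 of 27 were lower (background 14.2%) and 2 higher (background 7.18%), and periportally 6 were lower (background 9.56%) and 1 higher (background 4.96%). Epas1 was 247 and 529 CPM pericentrally (log2 1.10), 417 and 639 CPM in the middle and 646 and 815 CPM periportally (log2 0.34).

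The zonal slope itself had opposite signs in the 2 libraries for a pair of members. For each of them the slope was past the fold in only one library and within it in the other. Ndrg1 was 291 CPM periportally and 151 CPM pericentrally in the library labelled control (log2 -0.95, -1.18 to -0.73), against 374 and 436 CPM in the library labelled knockout (log2 0.22, 0.13 to 0.31). Ddit4 was 191 and 226 CPM in the former (log2 0.25, 0.05 to 0.43) and 155 and 69.6 CPM in the latter (log2 -1.16, -1.39 to -0.94). Of the members measured in both libraries, these were the only ones whose slopes had intervals on opposite sides of 0, and the difference between libraries was not tested. For Slc2a1, by contrast, the log2 ratio between labels was alike along the lobule, at -2.78 pericentrally, -2.64 in the middle and -2.55 periportally, with 11, 39 and 67 counts in the library labelled knockout. In large vessels it was -0.89 from 13 and 12 counts, with an interval that spans 0, and in Esm1 and Angpt2 cells -2.26, from 116 and 7 counts. These cells had 14 of 27 members lower (background 13.8%) and 3 higher (background 10.7%), and cells of large vessels 5 lower (background 15.3%) and 4 higher (background 13.8%).

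**Figure D3:**
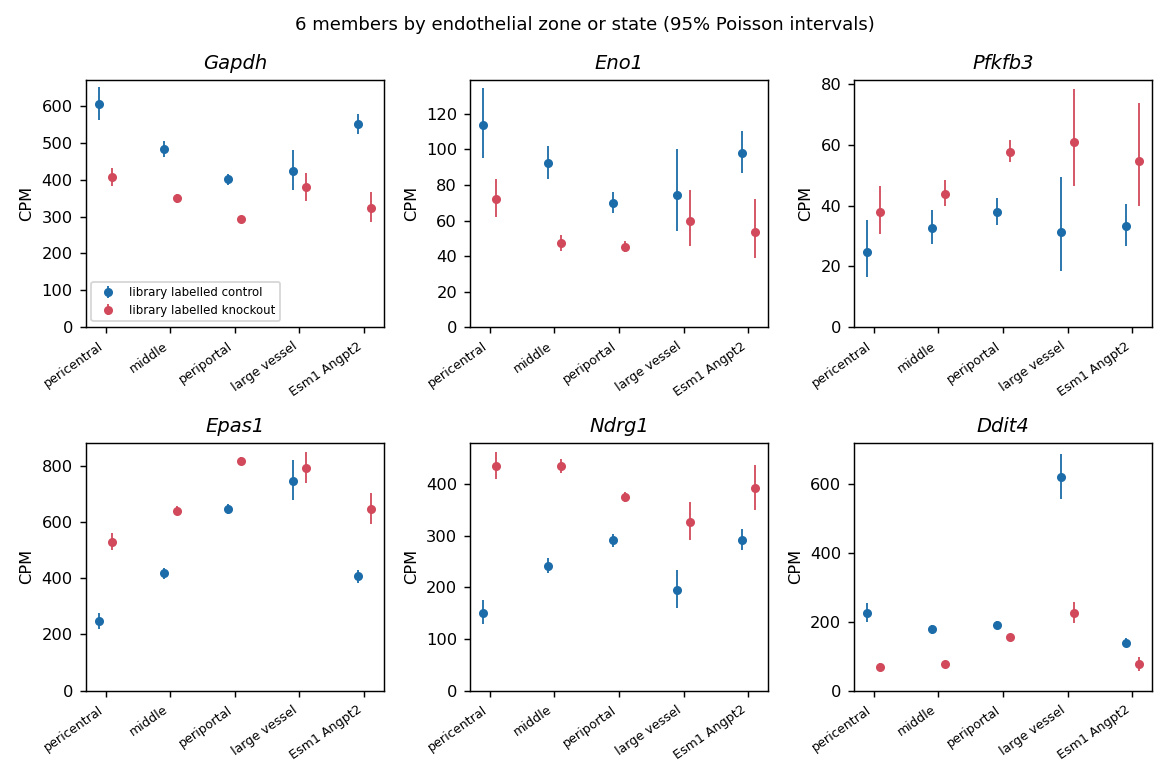
Level (CPM, linear axes from 0) of 6 members in endothelial cells of each zone or state, for the library labelled control (blue) and the library labelled knockout (red), with 95% Poisson intervals. Gapdh and Eno1 are highest pericentrally among the 3 zones in both libraries, Epas1 and Pfkfb3 are lowest there, and Ndrg1 and Ddit4 slope in different directions in the 2 libraries.

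Beyond the endothelium, the glycolytic sum was lower in the library labelled knockout in 7 further types and higher in 1. Kupffer cells, the macrophages resident in the sinusoid, had 3134 CPM (1455 cells) and 1996 CPM (1502 cells), that is log2 -0.65 (-0.67 to -0.63). T cells had 3442 and 2201 CPM (log2 -0.65, 206 and 291 cells), and NK cells or ILC1 2934 and 2013 CPM (log2 -0.54, 126 and 81 cells). Conventional dendritic cells stood at 2947 and 2205 CPM (log2 -0.42) and B cells at 1786 and 1281 CPM (log2 -0.48). Cycling genes in NK cells or ILC1 were 1831 and 793 CPM (5 of 5 lower) and immediate early genes 582 and 1318 CPM. In dendritic cells cycling genes were 718 and 1403 CPM and immediate early genes 1979 and 3258 CPM. B cells had erythroid markers at 454 and 57.6 CPM and hepatocyte markers at 411 and 133.5 CPM. The part of these lists in the sums was not tested. Without cells with a cycling count the sums were 2387 and 1732 CPM in NK cells or ILC1, 2687 and 2051 CPM in dendritic cells and 1726 and 1201 CPM in B cells. The Cre driver is endothelial, so these cells are not the labelled site of deletion. In these 5 immune types the log2 ratio stayed below 0 under every alternative tried, from the lowest value of -0.74 in T cells to the highest of -0.32 in B cells.

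**Figure D4:**
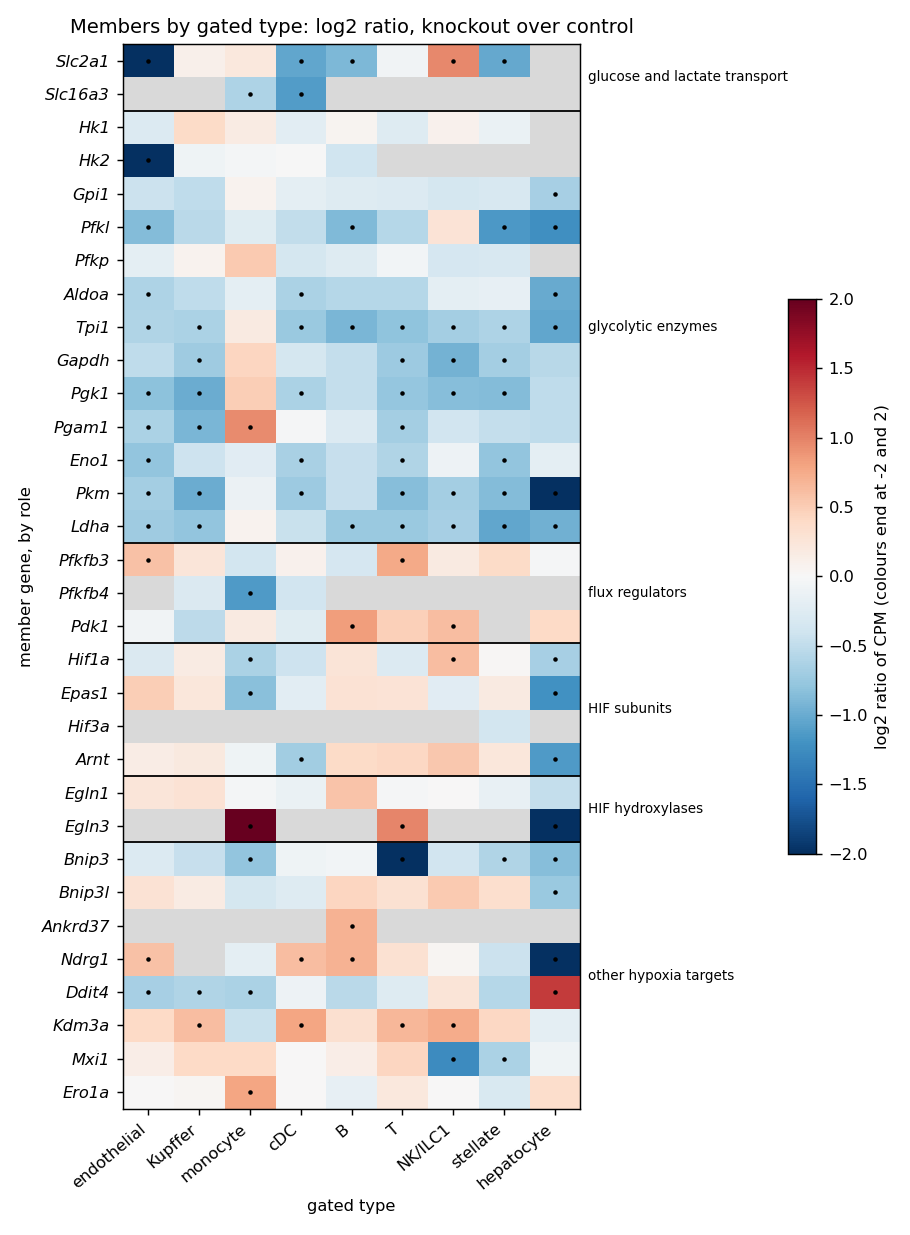
Log2 ratio of CPM, library labelled knockout over library labelled control, for each member (rows, by role) in each gated type (columns); blue is lower and red higher in the library labelled knockout, grey is not measured, and a dot marks a fold of at least 1.5. The glycolytic block is mostly blue outside the monocyte column, where Pgam1 is at 0.95; the exceptions are Hk1 and Pfkp in Kupffer cells, Hk1 in B cells, and Hk1 and Pfkl in NK cells or ILC1, all within the fold.

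By gene, Tpi1 was lower past the fold in 8 of 9 types, Pkm and Ldha in 7 of 9 and Pgk1 in 6 of 9. Aldoa, Eno1 and Pkm were below 0 in all 9. Slc2a1 was lower past the fold in 4 of 8 types, and higher in NK cells or ILC1, there from 11 and 14 counts and with an interval that spans 0 (-0.28 to 2.25). Kdm3a was the member most often higher, past the fold in 4 of 9 types. Bnip3 was below 0 in all 9 types, whereas its partner Bnip3l was above 0 in 6 of 9. The tallies over 9 types include hepatocytes, where 53.4% of all measured genes were lower past the fold and 78.47% were below 0. A low value there is therefore not particular to a member. In the other types the share of all measured genes below 0 was between 42.19% (monocytes) and 54.7% (endothelial cells). No tally over types is given here for all genes.

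Of 27 members measured in Kupffer cells, 7 were lower (background 6.09%) and 1 higher (background 5.08%). The lower ones were Tpi1 (120.7 and 78.1 CPM), Gapdh (813 and 494 CPM), Pgk1 (194 and 97.9 CPM, log2 -0.99), Pgam1 (186 and 99.2 CPM, log2 -0.91), Pkm (398 and 200.4 CPM, log2 -0.99), Ldha (218 and 125.8 CPM, log2 -0.80) and Ddit4 (323 and 212 CPM, log2 -0.61). The steps from triose phosphate to lactate were thus lower, but Eno1 (145 and 109 CPM) was within the fold. Kdm3a was higher, at 36.2 and 55.4 CPM (log2 0.61, 0.48 to 0.75). Hk2, which had its highest level of any described type in Kupffer cells, was 108.7 and 102.3 CPM, and Slc2a1 was 19.5 and 21.0 CPM. Neither of these 2 genes passed the fold there, unlike in endothelium. Cycling genes in Kupffer cells were 370 and 72.2 CPM, immediate early genes 1928 and 4363 CPM, and hepatocyte markers 303 and 125 CPM. Leaving out cells with a cycling count gave a glycolytic sum of 2990 and 1948 CPM (log2 -0.62).

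Stellate cells, the vitamin A-storing pericytes of the sinusoid, had 26 measured members, of which 10 were lower (background 8.44%) and none higher (background 7.72%). Slc2a1 was 67.2 and 33.1 CPM (log2 -1.02, -1.30 to -0.75) and Ldha 205 and 99.6 CPM (log2 -1.04, -1.20 to -0.88). Pfkl was 43.4 and 19.5 CPM (log2 -1.15), Pgk1 124.5 and 68.1 CPM (log2 -0.87) and Pkm 275 and 150.0 CPM (log2 -0.87). The others were Tpi1 (108 and 70.5 CPM), Gapdh (443 and 276 CPM), Eno1 (125.1 and 72.8 CPM), Bnip3 (52.7 and 34.5 CPM) and Mxi1 (28.7 and 18.5 CPM, log2 -0.63); the log2 ratio of Mxi1 was 0.01 when cells of mixed lineage were kept. Epas1 was 747 and 845 CPM, and Hif1a 79.7 and 81.3 CPM, both within the fold.

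Cells of the stellate gate with many contractile markers numbered 136 and 32. The glycolytic sum was lower both in these (2270 and 1485 CPM) and in those with few contractile markers (2321 and 1605 CPM, 345 and 486 cells). In cells with many contractile markers 9 of 26 members were lower (background 18.9%) and 1, Epas1, was higher (background 17.7%). With few such markers 9 of 26 were lower (background 7.99%) and 0 higher (background 6.36%). Smooth muscle markers in stellate cells as a whole were 2784 and 1013 CPM, cycling genes 401 and 39.0 CPM, and immediate early genes 1641 and 3400 CPM. Without cells with a cycling count the glycolytic sum was 2248 and 1597 CPM (log2 -0.49).

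Monocytes and monocyte-derived cells were the exception. Their glycolytic sum was 3662 CPM (857 cells) with the control label and 4197 CPM (274 cells) with the knockout label, for a log2 ratio of 0.20 (0.17 to 0.23). Of 30 measured members, 3 were higher (background 19.6%) and 6 lower (background 14%). The higher ones were Pgam1 (257 and 496 CPM, log2 0.95), Egln3 (3.59 and 18.0 CPM, log2 2.33, 20 and 70 counts) and Ero1a (57.2 and 98.9 CPM, log2 0.79). The lower ones were Pfkfb4 (36.1 and 16.4 CPM), Slc16a3 (log2 -0.61), Bnip3 (32.3 and 18.8 CPM), Ddit4 (158 and 102.3 CPM), Hif1a (107.1 and 69.1 CPM) and Epas1 (16.5 and 9.25 CPM).

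Split by markers, the Ly6c2 side (655 and 222 cells) had 4 of 30 members higher (background 21.9%) and 5 lower (background 15.4%), with a glycolytic sum of 3725 and 4393 CPM. The Ace side, of patrolling monocytes, had 65 and 18 cells, a sum of 3535 and 2569 CPM, and 3 of 22 members higher (background 16.9%) and 6 lower (background 23.3%).

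The cells of this gate differed in makeup between the libraries. Cycling genes were 292 and 2732 CPM, and 4 granule genes of granulocyte precursors (Mpo, Elane, Prtn3, Ctsg) 315 and 4309 CPM. At least 2 of these genes were detected in 17 of 857 cells (1.98%) and in 89 of 274 cells (32.5%). Without those cells the glycolytic sum was 3517 and 3066 CPM (log2 -0.20, -0.24 to -0.16), and no member passed the fold in either direction. Without cells with a cycling count it was 3460 and 2806 CPM (log2 -0.30, 722 and 117 cells). The direction in monocytes thus turned with either group of cells removed, and that of the other 8 types did not.

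**Figure D5:**
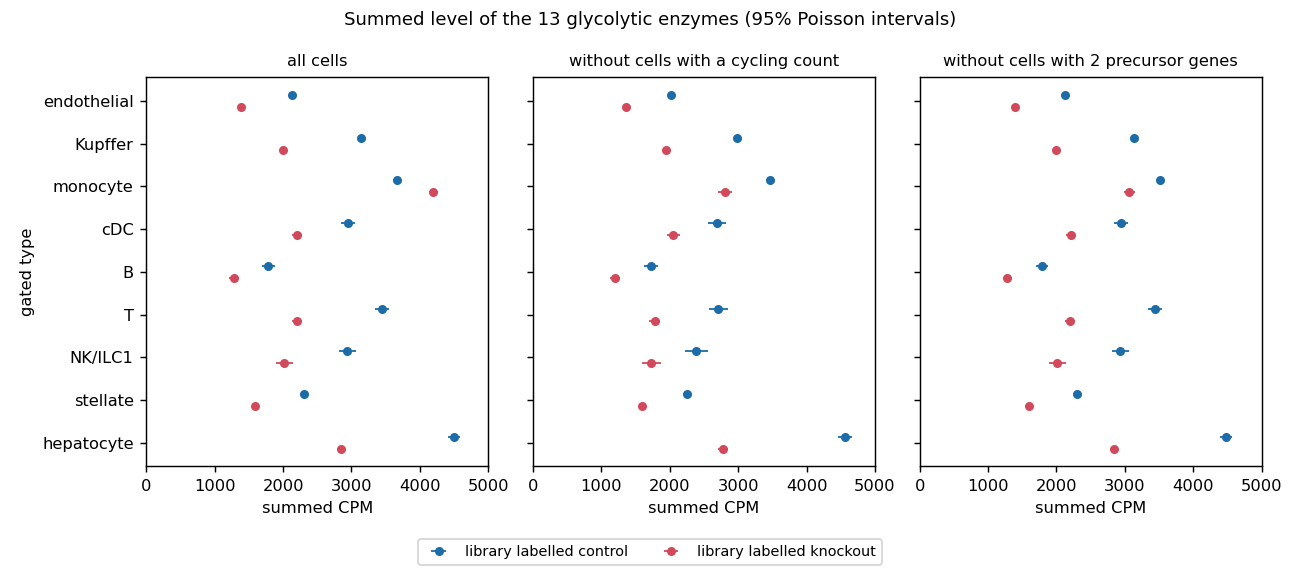
Summed level (CPM, linear axis from 0) of the 13 glycolytic enzymes by gated type for the library labelled control (blue) and the library labelled knockout (red), with 95% Poisson intervals, in all cells, without cells that had a cycling count and without cells with at least 2 precursor genes. Only monocytes change order between panels, from 3662 and 4197 CPM in all cells to 3517 and 3066 CPM without precursor-gene cells.

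Hepatocytes, which had been depleted before capture, numbered 258 and 83. Their glycolytic sum was 4502 and 2844 CPM (log2 -0.66), but the median of all 7556 genes measured in them was also -0.65, and TMM scaling brought the ratio to -0.02. Mitochondrial genes took 66530 and 150600 CPM in these cells, and their median share per cell was 1.17% and 11.9%. The cells held 2298849 and 3438745 counts in all, with medians of 5739 and 6045 per cell. Cells above the median therefore weighed most in the sums and ratios of this type, above all in the library labelled knockout. Of 24 measured members 13 were lower (background 53.4%) and 1 higher (background 9.98%), so the share of lower members was that of all genes. The higher member was Ddit4, at 43.9 and 116 CPM (log2 1.40, 1.08 to 1.73). Egln3, a HIF target that feeds back on HIF, was 42.2 and 8.14 CPM (log2 -2.37, 97 and 28 counts), well beyond the all-gene median.

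The remaining immune types had fewer cells and wider intervals. In conventional dendritic cells 2 of 29 members were higher (background 9.97%) and 8 lower (background 9.75%); in B cells 3 of 28 (background 14.8%) and 4 (background 12.6%). T cells had 3 of 27 higher (background 10.9%) and 8 lower (background 10.8%), and NK cells or ILC1 4 of 26 (background 16.5%) and 6 (background 13%). Of the 8 lower in T cells, 7 were glycolytic enzymes, led by Pkm (383 and 212 CPM, log2 -0.86), and the other was Bnip3 (19.7 and 4.78 CPM, 24 and 8 counts). The 3 higher in T cells were Pfkfb3 (28.8 and 48.4 CPM), Egln3 (8.21 and 16.1 CPM) and Kdm3a (52.6 and 83.1 CPM). Cycling genes in T cells were 1615 and 993 CPM, and without cells with a cycling count the glycolytic sum there was 2708 and 1778 CPM (log2 -0.61).

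Among the described types, some members marked a type in both libraries. Ndrg1 was highest in endothelium (265 and 398 CPM) and next in monocytes (109.4 and 95.6 CPM), with intervals clear of each other. Epas1 was highest in stellate cells (747 and 845 CPM), then in endothelium (522 and 731 CPM), and its median over types was 24.0 and 26.5 CPM. Bnip3 was highest in hepatocytes (461 and 254 CPM), followed by endothelium (66.9 and 55.5 CPM). Pfkfb3 was highest in conventional dendritic cells (76.2 and 80.8 CPM), Pdk1 in T cells (50.9 and 71.1 CPM) and Hif3a in stellate cells (15.9 and 12.4 CPM). Among the described types, each of these leads was clear of the second type's interval in both libraries. Types left out of the comparisons were not ranked. Smooth muscle cells or myofibroblasts of the library labelled control had Hif3a at 12.6 CPM (6.71 to 21.5), overlapping stellate cells (12.6 to 19.9). Neutrophils of the library labelled knockout had Pfkfb3 at 57.5 CPM (46.6 to 70.2), overlapping dendritic cells (67.1 to 96.4). Ndrg1, Epas1, Bnip3 and Pdk1 were clear of both these types. Slc2a1 was also highest in stellate cells in both libraries, but its interval there overlapped that of the second type. Hk2 was highest in Kupffer cells (108.7 and 102.3 CPM), with monocytes next (93.1 and 91.0 CPM) and overlapping in the library labelled knockout. Arnt, the shared partner subunit, had the lowest ratio of its highest type to the median of types, at 1.22 and 1.19.

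A further 41 genes of glycolysis and hypoxia outside the list were examined by count. In endothelial cells 22 were measured: 3 were higher (Ldhb, P4ha2 and Bhlhe40; background 5.19%) and 4 lower (background 11.2%), among them Slc16a1, Mif and Cited2. Bhlhe40, a transcriptional repressor that answers both to hypoxia and to the circadian clock, was 46.9 and 159 CPM (log2 1.76, 1.65 to 1.87). In stellate cells 21 were measured, with 1 higher, again Bhlhe40 (29.5 and 91.9 CPM; background 7.72%), and 5 lower (background 8.44%). Among these 5, the collagen cross-linking enzyme Lox was 229 and 12.6 CPM (log2 -4.18, -4.57 to -3.81), from 1133 and 62 counts. In Kupffer cells 19 were measured, none higher (background 5.08%) and 3 lower (background 6.09%), among them Mif and Cited2.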

How the data were processed

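Single-cell RNA was captured from 2 liver suspensions. The gene by cell matrices deposited by the authors hold raw whole-number counts, per the file headers and values; GRCm39 is the build that the submitters' processing notes name. For alignment, counting, collapse of molecular identifiers, strand and cell calling, the method is not given in the sources used here. The member genes and all gene lists were chosen with earlier results of these data known.

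Cells with at least 300 genes, at least 500 counts and at most 25% mitochondrial counts were kept. Each cell was scored as the mean over a class's markers of log expression per 10000 counts, divided by the marker's 0.9 quantile among positive cells and limited to 1. It took the top class at a score of at least 0.25 with at least 3 markers detected, and was set aside as mixed if a class of another lineage reached 0.5 of the top score. No doublet caller was run. Within 0.05 of a gate threshold lay 737 and 383 cells. Counts were summed per type and library and given as CPM with exact Poisson intervals; ratios have exact conditional binomial intervals, shares Clopper-Pearson ones, all at 95% and covering counting error only. Members past a fold of 1.5 in endothelial, Kupffer, stellate and monocyte types were named in full, the rest by range and count; zone genes, genes of smaller types and other pathway genes named singly were picked after their values were seen. One gene of the wider pathway list is not reported here by name. Total counts were 106208933 and 129802501, and the lowest kept cell had 3333 and 2848.

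With 1 library per label no test was run. In total 13 alternatives were computed, among them edgeR 4.0.16 TMM scaling (R 4.3.3), types from Leiden clusters (leidenalg 0.10.2; 2000 variable genes, 30 principal components, 15 neighbours, resolution 1.0, 30 clusters) and cells thinned to 2848 counts. Leaving out cells with a cycling count or with at least 2 precursor genes was added after seeing the data. The gating and interval code (Python 3.11.15, numpy 2.4.6, scipy 1.17.1, pandas 2.3.3) was tested on simulated data.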

Additional observations from a re-analysis of the deposited data

Results flagged for a closer look

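Given here are members whose log2 ratio between the libraries had opposite signs in different types, with a fold of at least 1.5 in each both by CPM and with TMM scaling; no difference between types was tested. Slc2a1 was 0.97 in NK cells or ILC1, from 11 and 14 counts, and -2.63 in endothelial cells. Pgam1 was 0.95 in monocytes and -0.91 in Kupffer cells. Egln3 was 2.33 in monocytes and -2.37 in hepatocytes. Ddit4 was 1.40 in hepatocytes and -0.63 in monocytes. By CPM alone, Ndrg1 (0.70 in B cells, -2.32 in hepatocytes) and Hif1a (0.62 in NK cells or ILC1, -0.66 in hepatocytes) also had opposite signs. Hepatocytes had an all-gene median of -0.65, and the monocyte values of Pgam1 and Ddit4 changed sign without cells with a cycling count.

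Between endothelial zones, the log2 ratio of pericentral to periportal levels had intervals on opposite sides of 0 in the libraries for 2 members, whatever the fold and again untested. With the control label Ndrg1 was -0.95 and Ddit4 0.25, and with the knockout label 0.22 and -1.16.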

How the results depend on the processing

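Over all alternatives the log2 ratio of the glycolytic sum stayed below 0 in every type except monocytes, and above 0 between zones in both libraries. Of the values that answer a comparison, 98 stayed within 1.5 times or the spread and 46 moved; of the others, 606 stayed, 102 moved and 12 reversed. Counts of members past the fold depended on the setting, since several lie at the threshold; where no value shows it, the cause was not tested. Higher members in endothelium numbered 1 with the stricter cell filter, with mixed cells kept and at 50 CPM, and 0 with types from clusters, thinned cells, mean per-cell CPM, a fold of 2 or no cells with a cycling count. Lower members there numbered 7 with types from clusters and with mean per-cell CPM, 6 with TMM and 2 at a fold of 2. Kupffer cells had 2 higher members with mixed cells kept, and 0 with thinned cells, at 50 CPM or at a fold of 2. Only at the fold of 2 is the number of lower members there given as 0. Stellate cells had 1 higher with thinned cells and 3 lower at a fold of 2; Mxi1 was 0.013 with mixed cells kept.

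Monocytes had 2 lower members with mixed cells kept and at 50 CPM, 3 with thinned cells, 0 with types from clusters, 1 lower and 1 higher with mean per-cell CPM and at a fold of 2. With types from clusters Pgam1 was -0.008 and Slc16a3 0.82. Without cells with a cycling count they had 0 higher and 2 lower, the sum was -0.30, Pgam1 -0.20, Slc16a3 0.29, Bnip3 0.37, Ddit4 0.41 and Ero1a -0.19. Without cells with 2 precursor genes they had 0 higher and 0 lower, the sum was -0.20, Slc16a3 0.018 and Ddit4 0.16.

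Between zones of the library labelled control, 1 member was higher and 3 lower with mixed cells kept, 5 higher without cells with a cycling count, 3 lower at 50 CPM, 1 higher and 1 lower at a fold of 2, and 6 higher with the stricter zone gate. For the library labelled knockout, 0 were higher and 1 lower with mixed cells kept and at a fold of 2, 2 higher with thinned cells and with mean per-cell CPM, 1 lower without cells with a cycling count, and 3 higher with the stricter zone gate. TMM scaling was not run on zones. No paired analysis was possible because there was 1 library per label.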

Other observations

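Types with at least 50 cells in 1 library only were left out of the comparisons. Neutrophils of the library labelled knockout (211 cells; 38 in the other library) had Gpi1 at 728 CPM, Pkm at 670 CPM and Hk2 at 81.5 CPM, and no count of Ankrd37. Smooth muscle cells or myofibroblasts of the library labelled control (52 cells) had Gapdh at 675 CPM, Ldha at 275 CPM and 31 counts of Egln3.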
